A study of Mus musculus with 30 samples.

Results

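The data described here are the RNA levels of 38 autophagy and lysosome genes in mouse hearts, out of 13575 genes with values in the authors' deposited table. The genes were taken from a list of 39 symbols that covers the steps of autophagy from the ULK initiation kinases to the lysosomal proteases, and a member was counted where the table carries that symbol. All 38 passed the filter on low values and were tested with 13256 genes in all. The remaining symbol, Atg101, a subunit of the ULK complex, was found under its older symbol 9430023L20Rik and is given beside the others without being counted.

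The hearts came from mice of 2 months, collected at ZT10 (10 hours after lights on) with the atria trimmed. The study asks what the circadian repressors REV-ERBα and REV-ERBβ do in the heart. There were 3 libraries labelled control, whose titles read RevFloxed_Control, and 3 labelled CM-RevDKO, in which both receptor genes are deleted in cardiomyocytes. The protocol given for the ChIP samples of the series describes mice with both receptor genes floxed (ff/ff), with or without aMHC-Cre, a recombinase driven by the alpha myosin heavy chain promoter. Both groups therefore carry the floxed alleles, and an effect of Cre and one of receptor loss cannot be told apart. Other heart cells keep both genes and add to whole-heart RNA, so fewer cells of a type and less RNA per cell cannot be told apart. Whether each library is a separate mouse is left unsaid in the labels. The p-values therefore take in only the spread of these 3 libraries a group, and it may be technical. Their sex was not given in the sources used here.

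Each of the 6 libraries had between 11967 and 12395 genes at 1 FPKM or more (fragments scaled to transcript length and library total), and sequencing depth is unknown. Of the targeted genes, Nr1d1 stood at 15.01 to 23.9 FPKM in control libraries and rose to 47.4 to 55.6 FPKM in libraries labelled CM-RevDKO (limma adjusted p = 0.0124), against the direction of the label. Nr1d2 stood at 30.6 to 40.3 and 26.6 to 28.8 FPKM (limma adjusted p = 0.175). Which exons were deleted was not given in the sources used here, so gene-level values do not check the deletion, and each direction below rests on the labels. Cardiomyocyte markers were abundant throughout, with 10 of them summing to 30034 to 32213 FPKM in control and 30175 to 33890 FPKM in CM-RevDKO libraries. Single markers did differ: 1 of the 10 was called higher by limma, where 1.26% of all genes were. By limma 5 had an unadjusted p under 0.05 (16.6% of all genes), and 6 had groups without overlap (23.1% of all genes). CM-RevDKO replicates 1 and 2 stood apart in mt-Atp8, with 18989 and 19303 FPKM, while the other 4 libraries had 8032 to 9769 FPKM. In mmu-mir-689-2 the same replicates had 3683 and 1813 FPKM, while the other 4 libraries had 25204 to 42294 FPKM. The summed level of 5 atrial markers was 196 to 278 FPKM in control and 755 to 1476 FPKM in CM-RevDKO libraries, with Bmp10 at 0 in at least 1 library. That of 5 adipocyte markers was 9.37 to 14.5 FPKM in control libraries and 83.9, 47.0 and 11.7 FPKM in CM-RevDKO replicates 1, 2 and 3. The part of these differences in the results below was not tested, except where values without those libraries or with an atrial covariate are given.

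Autophagy encloses cytoplasm and worn organelles in a double membrane and delivers them to the lysosome for breakdown. The ULK kinase complex starts it under control of the nutrient and energy kinases, a class III PI3-kinase marks the membrane, and conjugation enzymes attach ATG8 proteins (LC3 and GABARAP) to it, to which receptors tether cargo. In heart muscle it serves protein and mitochondrial quality control, and defects of the lysosomal proteins LAMP2 and acid alpha-glucosidase cause cardiomyopathy in Danon and Pompe disease. In skeletal muscle, REV-ERBα has been described as a repressor of autophagy genes, which makes these genes a natural group to examine after its loss.

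Nearly all of these genes stood at similar levels in the libraries labelled CM-RevDKO and control. A single member, Ctsl, which encodes the lysosomal protease cathepsin L, passed the test and rose. None fell (0 of 38, with 2 members lower at an unadjusted p under 0.05). That is 1 of 38 members called by limma at an adjusted p under 0.05, where 2.5% of all genes tested were called (1.26% higher and 1.24% lower). The Benjamini-Hochberg adjustment ran over all 13256 genes. At an unadjusted p under 0.05 there were 4 members higher (Ctsl, Lamp1, Gabarapl2 and Becn1) and 2 lower (Optn and Bnip3), or 15.8% of the members beside 16.6% of all genes (9.41% higher and 7.23% lower). For 9 members the 2 groups had no overlap in values, 5 higher and 4 lower, or 23.7% beside 23.1% of all genes (12.6% higher and 10.5% lower). By each of these counts the members stood close to the share seen over all genes. With no filter on low values 2.44% of all genes were called, and Ctsl remained the single member. No member was called, beside 1.83% of all genes, without the intensity trend, 0.868% with the replicate block or 0.264% against a fold change of 1.5. The same held with 1 library left out, beside 0.905%, 1.12% and 1.03% of all genes without control replicates 1, 2 and 3 and 1.61%, 0.913% and 2.43% without CM-RevDKO replicates 1, 2 and 3. It also held for CM-RevDKO replicate 3 alone against the controls (0.158%), with control replicate 2 and CM-RevDKO replicate 1 both set aside (0.792%), and with atrial markers other than Nppa as a covariate (0.234%).

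The median log2 fold change of the 38 members, on the log2(FPKM + 1) scale and taken as CM-RevDKO minus control, was -0.04, against 0.02 over all genes tested. Of the members 16 had a positive and 22 a negative value (53.7% of all genes were positive), from -0.53 for Optn to 0.70 for Ctsl. The median absolute difference was 0.10 in the members and 0.16 over all genes. Their summed level was 2040 to 2253 FPKM in control and 2126 to 2251 FPKM in CM-RevDKO libraries, so the groups overlapped.

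How small the differences were can be read from their intervals. For 30 of the 38 members (78.9%) the 95% confidence interval of the log2 fold change lay wholly within a 1.5-fold change in either direction (0.585 on the log2 scale). The share was 61.5% over all genes tested and 69.6% over the 7255 genes whose mean reached 5 FPKM. The other 8 members were Becn1, Gabarapl1, Optn, Bnip3, Lamp1, Ctsl, Gaa and Tfeb. For these a 1.5-fold difference lay within the interval.

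**Figure D1:**
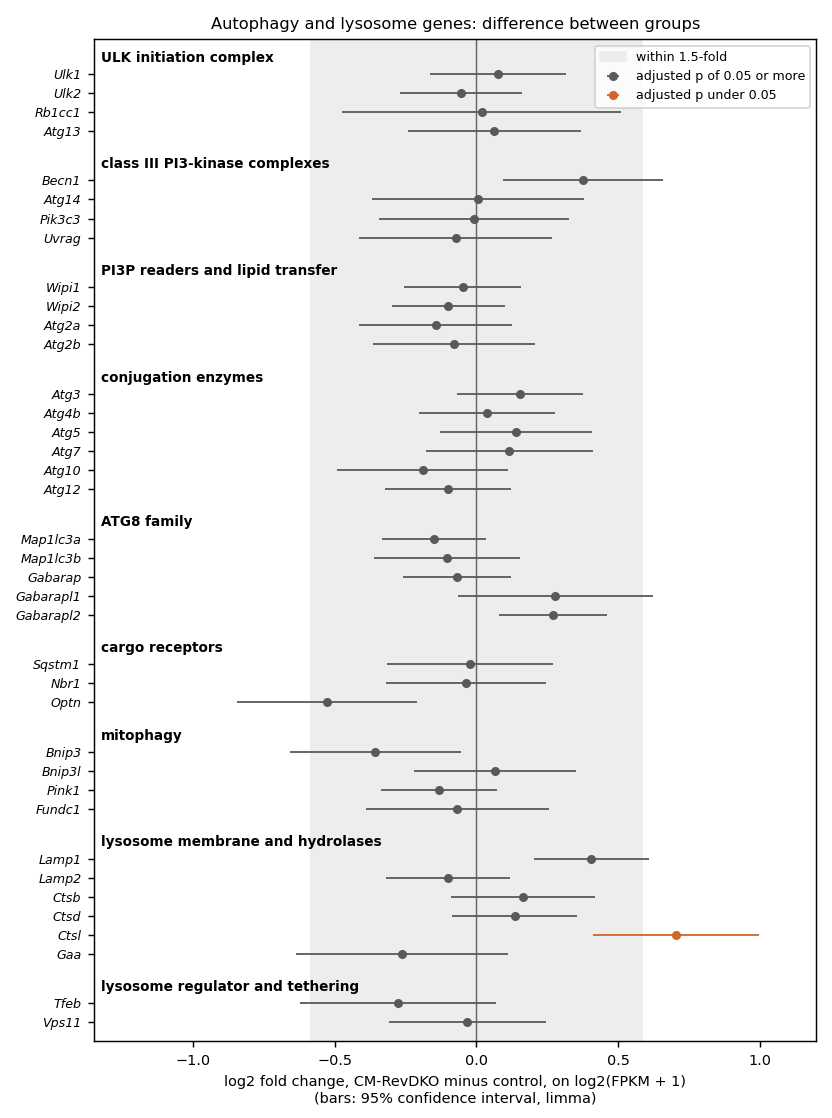
Log2 fold change of each of the 38 genes (horizontal axis, CM-RevDKO minus control on log2(FPKM + 1)) by role in the pathway, with 95% confidence intervals from limma and the 1.5-fold range shaded in grey. The intervals of 30 genes lie inside the grey band, and Ctsl, in orange, is the single gene with an adjusted p under 0.05.

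As levels, the members spanned a wide range, and FPKM, being scaled to length, lets them be set beside each other. Of the 38, 7 had a mean of at least 100 FPKM over the 6 libraries, 19 lay between 10 and 100 FPKM and 12 lay under 10 FPKM. Their median of 15.7 FPKM was above the 5.58 FPKM of the median gene in the table. The most abundant were Map1lc3a (355 FPKM), Ctsd (347 FPKM) and Pink1 (232 FPKM), and the lowest was Atg2b at 2.19 FPKM. By role, the means ran from 35.9 to 355 FPKM in the ATG8 family, from 29.3 to 347 FPKM in lysosomal membrane proteins and hydrolases, from 18.6 to 175 FPKM in cargo receptors and from 4.10 to 12.9 FPKM in conjugation enzymes. The coefficient of variation between the 3 control libraries ran from 1.31% for Gabarap to 25.2% for Rb1cc1, with a median of 8.12%.

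**Figure D2:**
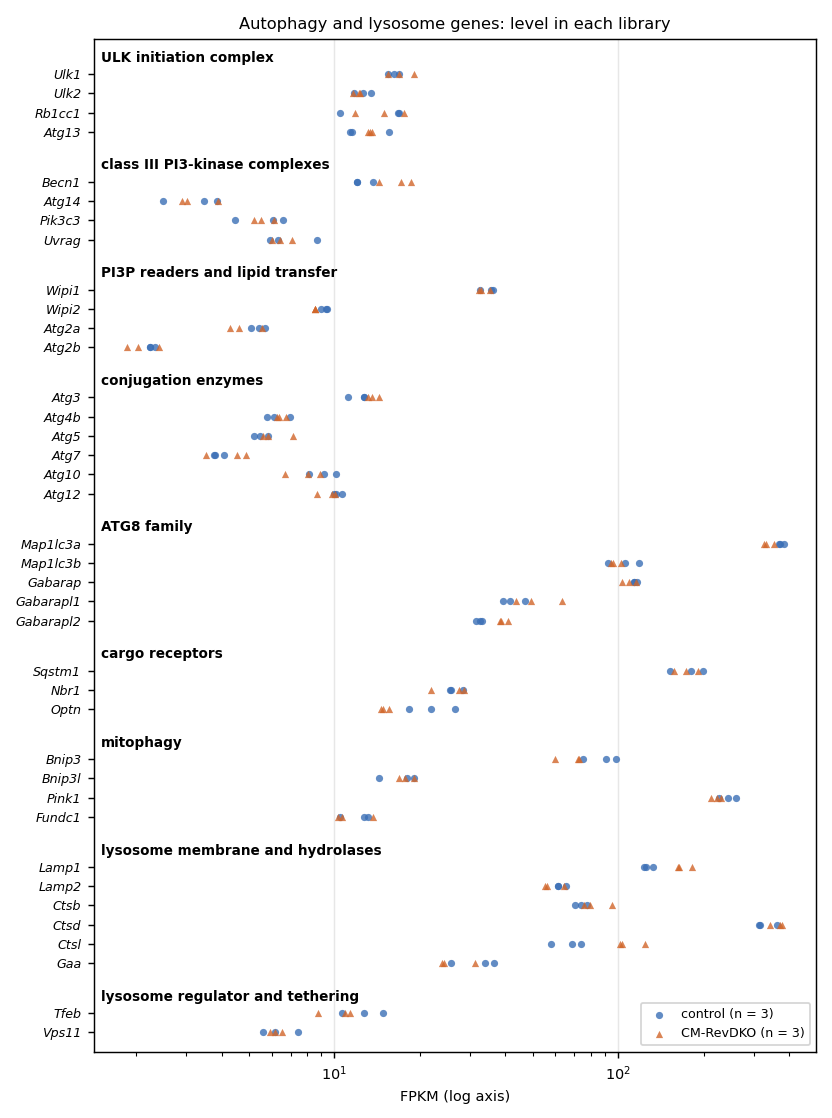
FPKM of the 38 genes in each library (horizontal log axis), 3 control libraries as blue circles and 3 CM-RevDKO libraries as orange triangles, grouped by role. The colours are intermixed for most genes, with Map1lc3a, Ctsd and Pink1 at the high end and Atg2b at the low end.

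The ULK initiation complex did not differ detectably. Ulk1, the kinase that opens the pathway (chr5:110784489-110810120, GRCm38.p6), stood at 16.2, 16.8 and 15.4 FPKM in control replicates 1, 2 and 3 and at 16.9, 15.5 and 19.0 FPKM in CM-RevDKO replicates 1, 2 and 3. The groups overlapped, and the log2 fold change was 0.08 (95% interval -0.16 to 0.32, limma adjusted p = 0.768). Its paralog Ulk2 stood at 12.6 ± 0.836 and 12.04 ± 0.395 FPKM (mean ± SD, n = 3 each, control first). The scaffold Rb1cc1, also called FIP200, stood at 14.7 ± 3.70 and 14.7 ± 2.90 FPKM, and the regulatory subunit Atg13 at 12.9 ± 2.38 and 13.3 ± 0.232 FPKM (SD, n = 3). The 4 counted subunits had adjusted p-values of 0.768 to 0.981, and all 4 intervals lay within 1.5-fold. Atg101, read from the row of 9430023L20Rik, stood at 9.60, 10.6 and 11.2 FPKM in control and at 13.8, 13.3 and 10.8 FPKM in CM-RevDKO libraries. Its log2 fold change was 0.24 (limma adjusted p = 0.370), with CM-RevDKO replicate 3 inside the control range. The means of the 4 counted subunits, 12.3 to 16.6 FPKM over the 6 libraries, lay close to each other.

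Of the class III PI3-kinase complexes, the scaffold subunit Becn1 alone lay apart between groups. That is 1 of 4 members, or 25.0%, beside 23.1% of all genes without overlap. Becn1 encodes beclin 1, which joins the lipid kinase to its regulators (chr11:101288258-101302286). It stood at 12.01, 13.7 and 12.04 FPKM in control and at 17.1, 14.3 and 18.7 FPKM in CM-RevDKO libraries. Each CM-RevDKO library was above each control, replicate 2 by a small margin. The log2 fold change was 0.38 (SE 0.12, interval 0.09 to 0.66) and did not pass the test (limma adjusted p = 0.177). The catalytic subunit Pik3c3, or VPS34, stood at 5.70 ± 1.10 and 5.61 ± 0.462 FPKM (SD, n = 3). Atg14, which directs the complex to autophagosome formation, stood at 3.27 ± 0.696 and 3.27 ± 0.535 FPKM, and Uvrag, the subunit of the late endosomal complex, at 6.97 ± 1.49 and 6.51 ± 0.544 FPKM (SD, n = 3). These 3 intervals lay within 1.5-fold, and Becn1 stood above its partners in level.

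The proteins that read the lipid mark and feed lipid to the growing membrane all had negative log2 fold changes, from -0.14 to -0.05. These are 4 genes, and 53.7% of all genes were positive. None passed (limma, adjusted p-values of 0.581 to 0.837), beside 2.5% of all genes. None had an unadjusted p under 0.05 (16.6% of all genes), and all 4 intervals lay within 1.5-fold. Atg2a, a lipid transfer protein (chr19:6241478-6262304), stood at 5.43, 5.07 and 5.70 FPKM in control and at 4.59, 4.29 and 5.53 FPKM in CM-RevDKO libraries. Replicate 3 of CM-RevDKO lay within the control range, and the log2 fold change was -0.14 (SE 0.12, limma adjusted p = 0.581). The PI3P-binding protein Wipi2 stood at 9.37, 9.32 and 8.98 FPKM in control and at 8.54, 8.55 and 8.54 FPKM in CM-RevDKO libraries, groups that did not overlap but lay close together (log2 fold change -0.10). Wipi1 was the most abundant of the group at 34.7 ± 1.92 and 33.5 ± 1.56 FPKM, and Atg2b the least at 2.27 ± 0.0510 and 2.10 ± 0.282 FPKM (SD, n = 3).

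The conjugation enzymes, which activate ATG8 and ATG12 proteins and join them to their targets, showed no call among 6 (2.5% of all genes). None had an unadjusted p under 0.05 by limma, beside 16.6% of all genes. Atg3, the E2-like enzyme that attaches LC3 to lipid (chr16:45158829-45188538), came nearest. Atg3 stood at 12.7, 11.2 and 12.7 FPKM in control and at 14.4, 13.1 and 13.6 FPKM in CM-RevDKO libraries. The groups did not overlap, and the log2 fold change was 0.15 (SE 0.10, limma adjusted p = 0.475). Atg7, the E1-like enzyme, stood at 3.88 ± 0.166 and 4.32 ± 0.708 FPKM, and Atg5, the partner of ATG12, at 5.51 ± 0.306 and 6.19 ± 0.825 FPKM (SD, n = 3). Atg12 itself stood at 10.2 ± 0.327 and 9.49 ± 0.710 FPKM. The E2-like Atg10, which serves ATG12, stood at 9.14 ± 0.990 and 7.91 ± 1.10 FPKM, and the processing protease Atg4b at 6.28 ± 0.631 and 6.45 ± 0.242 FPKM (SD, n = 3). All 6 intervals lay within 1.5-fold.

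The ATG8 family, the ubiquitin-like proteins that coat the membrane, was abundant. It was led by Map1lc3a, which encodes LC3A and made up 54.7% to 56.9% of the family's summed FPKM in control and 52.0% to 53.6% in CM-RevDKO libraries. Map1lc3a stood at 382, 370 and 367 FPKM in control and at 353, 331 and 326 FPKM in CM-RevDKO libraries. Each CM-RevDKO library was below each control, but the log2 fold change of -0.15 did not pass (SE 0.08, limma adjusted p = 0.394). Gabarapl2, also called GATE-16 (chr8:111940703-111952915), went the other way. It stood at 32.6, 33.2 and 31.4 FPKM in control and at 38.4, 38.8 and 40.8 FPKM in CM-RevDKO libraries, again without overlap. Its log2 fold change was 0.27 (SE 0.08, interval 0.08 to 0.46, limma adjusted p = 0.155), and its share of the family was 4.78% to 4.91% in control and 5.83% to 6.69% in CM-RevDKO libraries. The shares were chosen for description after the values were seen and were not tested.

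The other 3 ATG8 genes overlapped between groups. Map1lc3b, the LC3 form most used to follow autophagy, stood at 105 ± 13.3 and 97.5 ± 4.11 FPKM (SD, n = 3). Gabarap stood at 115 ± 1.498 and 109 ± 6.03 FPKM. Gabarapl1, a GABARAP paralog, stood at 46.7, 41.5 and 39.2 FPKM in control and at 63.5, 49.3 and 43.7 FPKM in CM-RevDKO libraries, with replicate 1 far above the rest (log2 fold change 0.28, limma adjusted p = 0.3999). The family's summed level was 646 to 681 FPKM in control and 610 to 659 FPKM in CM-RevDKO libraries.

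Among the cargo receptors, Optn had the lowest log2 fold change of all 38 members. Optn encodes optineurin, a receptor for ubiquitin-marked mitochondria and bacteria (chr2:5020521-5064399). It stood at 21.9, 26.6 and 18.3 FPKM in control and at 14.8, 15.5 and 14.6 FPKM in CM-RevDKO libraries. The 3 CM-RevDKO libraries lay close together below each control, while the controls were spread. The log2 fold change of -0.53 (SE 0.14, interval -0.85 to -0.21) did not pass the test (limma adjusted p = 0.104). Sqstm1, which encodes p62, the receptor that links ubiquitin-marked cargo to LC3, was more abundant at 177 ± 23.5 and 174 ± 17.3 FPKM, and its relative Nbr1 stood at 26.6 ± 1.64 and 26.01 ± 3.60 FPKM (SD, n = 3). Their log2 fold changes of -0.02 and -0.04 had adjusted p-values of 0.957 and 0.916 by limma.

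The mitophagy genes, whose products mark or tether mitochondria for removal, held 1 of 4 members without overlap between groups. That is 25.0%, beside 23.1% of all genes without overlap. Bnip3, a receptor in the outer mitochondrial membrane that is induced by low oxygen (chr7:138890836-138909506), stood at 90.2, 97.9 and 75.1 FPKM in control and at 72.0, 59.7 and 72.9 FPKM in CM-RevDKO libraries. The highest CM-RevDKO library lay just below the lowest control. The log2 fold change was -0.36 (SE 0.13, interval -0.66 to -0.05), and it did not pass (limma adjusted p = 0.225). Its paralog Bnip3l, or NIX, stood at 17.2 ± 2.45 and 17.9 ± 1.13 FPKM (SD, n = 3). The ratio of Bnip3 to Bnip3l was 4.72 to 5.44 in control and 3.54 to 4.10 in CM-RevDKO libraries, a description chosen after the values were seen. Pink1, the kinase that accumulates on damaged mitochondria, stood at 243 ± 16.9 and 221 ± 9.01 FPKM, and the receptor Fundc1 at 12.1 ± 1.43 and 11.5 ± 1.86 FPKM (SD, n = 3). Both overlapped between groups.

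**Figure D3:**
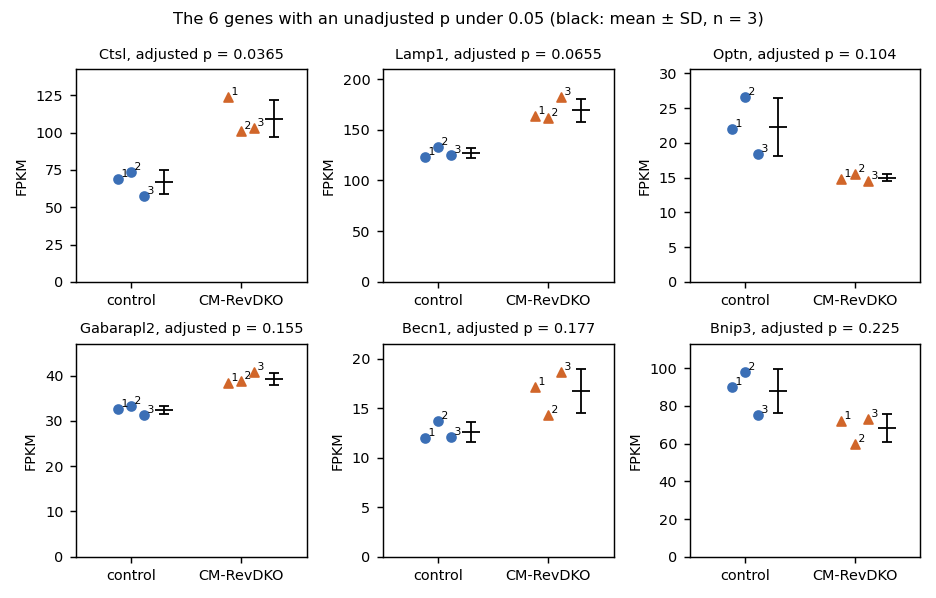
FPKM in each library (vertical axes, from 0) of the 6 genes with an unadjusted p under 0.05, with replicate numbers beside the points and the mean ± SD (n = 3) in black. Groups do not overlap in any of the 6 panels, with Ctsl, Lamp1, Gabarapl2 and Becn1 higher and Optn and Bnip3 lower in CM-RevDKO libraries.

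The lysosomal genes held the 2 members with the smallest p-values, Ctsl and Lamp1. Ctsl encodes cathepsin L, a cysteine protease that degrades proteins in the lysosome (ENSMUSG00000021477, chr13:64361890-64370772). It stood at 68.8, 73.9 and 57.8 FPKM in control and at 124, 101 and 103 FPKM in CM-RevDKO libraries, with each CM-RevDKO library well above each control and replicate 1 the highest. The ratio of the means, 109 to 66.8 FPKM, was 1.64, and the log2 fold change was 0.70 (SE 0.13, interval 0.41 to 1.00, limma adjusted p = 0.0365). Leaving out any 1 of the 6 libraries ended the call (adjusted p from 0.0599 to 0.119), with the difference between 0.60 and 0.78. With CM-RevDKO replicate 3 alone against the controls, that is, without the 2 libraries that stood apart, the difference was 0.62. With the atrial markers as a covariate the difference was 0.35 (SE 0.40, limma adjusted p = 0.936). That covariate separates the groups, and with it 0 of all 13256 genes tested were called. The part of atrial tissue in the Ctsl result therefore cannot be read from that fit.

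Macrophages are rich in lysosomes. Their 13 markers summed to 259 to 285 FPKM in control libraries and to 404, 239 and 245 FPKM in CM-RevDKO replicates 1, 2 and 3. None of the 13 passed the test (2.5% of all genes did), and none had an unadjusted p under 0.05 by limma (16.6% of all genes). None was at 0 in a library, and none separated the groups (23.1% of all genes). The part of these cells in the Ctsl result was not tested. For fibroblasts 8 markers summed to 423 to 597 FPKM in control and 442 to 585 FPKM in CM-RevDKO libraries. None of the 8 had an unadjusted p under 0.05 by limma, beside 16.6% of all genes.

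Lamp1 encodes a main glycoprotein of the lysosomal membrane (ENSMUSG00000031447, chr8:13159161-13175338). It stood at 124, 133 and 125 FPKM in control and at 163, 162 and 182 FPKM in CM-RevDKO libraries, so each CM-RevDKO library was above each control. The log2 fold change was 0.41 (SE 0.09, interval 0.20 to 0.61), and it missed the threshold (limma adjusted p = 0.0655). Tested only among the 7255 genes whose mean reached 5 FPKM, 4.3% of which were called, Lamp1 passed (adjusted p = 0.0479). With quantile normalization its difference was 0.25 (adjusted p = 0.260). Lamp2, the paralog needed for fusion of autophagosomes with lysosomes, stood at 62.9 ± 2.40 and 58.7 ± 4.95 FPKM (SD, n = 3), with a log2 fold change of -0.10 (limma adjusted p = 0.646). The ratio of Lamp1 to Lamp2 was 1.88 to 2.16 in control and 2.53 to 3.29 in CM-RevDKO libraries, again a description chosen after the values were seen.

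The other lysosomal hydrolases overlapped between groups. Ctsd, the aspartic protease cathepsin D and the most abundant hydrolase of the list, stood at 331 ± 28.1 and 363 ± 18.8 FPKM, and Ctsb, cathepsin B, at 74.0 ± 3.65 and 83.3 ± 10.2 FPKM (SD, n = 3). Ctsl therefore made up more of the summed FPKM of these 3 cathepsins in CM-RevDKO libraries (18.4% to 21.0%) than in control libraries (12.8% to 15.2%). This share restates the values that singled out Ctsl and was not tested. Gaa, the acid alpha-glucosidase that clears glycogen from lysosomes, stood at 33.9, 36.4 and 25.8 FPKM in control and at 31.3, 24.3 and 23.8 FPKM in CM-RevDKO libraries (log2 fold change -0.26, limma adjusted p = 0.462).

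Tfeb, the transcription factor that activates lysosomal and autophagy genes (chr17:47737037-47792416), stood at 12.7, 10.6 and 14.9 FPKM in control and at 11.3, 8.72 and 10.9 FPKM in CM-RevDKO libraries. The groups overlapped, and the log2 fold change was -0.28 (SE 0.15, interval -0.62 to 0.07, limma adjusted p = 0.407). Vps11, a core subunit of the HOPS complex that tethers vesicles to lysosomes, stood at 6.41 ± 0.956 and 6.21 ± 0.293 FPKM (SD, n = 3, log2 fold change -0.03).

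Promoter sequence is given here because TFEB and the clock activators both bind E-boxes, with the core CACGTG, while REV-ERB binds ROR elements and E4BP4, the product of Nfil3, binds D-boxes. RefSeq promoter windows on GRCm38.p6, from 250 bases before to 50 after a start site, were found for 31 of the 39 listed symbols, Atg101 among them. The E-box core CACGTG, which reads the same on both strands, occurred in the windows of 9 of these genes (29.0%). The share was 8.09% over the 27025 genes of the promoter table, which are not limited to genes expressed in heart. The longer palindromic CLEAR element of the TFEB network, which contains this core, occurred in none (0.370% of all genes). Its inner 8 bases, TCACGTGA, a search added later, occurred in Atg3 and Ctsd, or 6.45% of the 31 genes beside 1.12% of all genes. On either strand, none of the 31 held the ROR element cores TAGGTCA or AAGGTCA (2.97% and 5.38% of all genes) or the D-boxes TTATGTAA or TTACGTAA (1.11% and 0.126%). A match is a description of these letters in this window, not of binding. The core of Atg7 (chr6:114670952-114670981) lies inside the annotated gene, which starts at 114643127 on the plus strand.

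Lamp1 had the most E-box cores, 4 within the 61 bases before its start site. Its window (chr8:13158911-13159210, plus strand) is shown first, followed by that of Ctsl (chr13:64370471-64370770, minus strand), the single member that passed the test, which holds 1 core 236 bases before the start site used. The annotated Ctsl gene extends upstream of that start, so its window lies within the gene. Capitals mark the E-box cores, and both read 5′ to 3′ on the strand of the gene.
Lamp1: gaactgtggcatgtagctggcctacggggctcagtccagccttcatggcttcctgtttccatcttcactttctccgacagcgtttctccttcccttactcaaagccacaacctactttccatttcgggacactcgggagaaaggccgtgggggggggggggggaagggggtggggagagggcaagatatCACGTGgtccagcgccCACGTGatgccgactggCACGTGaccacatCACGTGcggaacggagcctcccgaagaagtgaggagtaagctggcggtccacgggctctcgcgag
Ctsl: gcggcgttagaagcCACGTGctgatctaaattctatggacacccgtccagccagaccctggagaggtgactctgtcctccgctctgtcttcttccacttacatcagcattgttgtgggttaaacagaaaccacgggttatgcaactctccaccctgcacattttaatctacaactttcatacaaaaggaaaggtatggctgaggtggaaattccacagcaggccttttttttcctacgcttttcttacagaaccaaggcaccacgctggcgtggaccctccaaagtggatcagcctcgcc

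Of the other 7 genes with the core, 4 are shown with 12 bases on each side, to set its surroundings in 2 lysosomal hydrolases beside those in a mitophagy receptor and a conjugation enzyme. They are the core of Ctsd that lies 98 bases before the start (chr7:142387908-142387937, minus strand), that of Gaa at 140 bases (chr11:119267811-119267840, plus strand), that of Bnip3 at 108 bases (chr7:138909597-138909626, minus strand) and the nearer core of Atg3, at 71 bases (chr16:45158746-45158775, plus strand).
Ctsd: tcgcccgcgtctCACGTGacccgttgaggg
Gaa: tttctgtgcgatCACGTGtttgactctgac
Bnip3: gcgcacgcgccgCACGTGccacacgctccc
Atg3: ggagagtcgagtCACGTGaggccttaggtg

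Of the 9 genes with the core, Ctsl rose and no other passed the test, where 2.5% of all genes tested were called. The log2 fold change was positive in 7 and negative in 2, beside 16 positive of the 38 members and 53.7% positive over all genes. It was 0.41 for Lamp1, 0.15 for Atg3, 0.14 for Atg5, 0.13 for Ctsd, 0.12 for Atg7, 0.01 for Atg14, -0.26 for Gaa and -0.36 for Bnip3. Of the lysosomal members with a window, Lamp1, Ctsd, Ctsl and Gaa held the core and Lamp2 did not. Whether the core has a part in these differences was not tested.

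**Figure D4:**
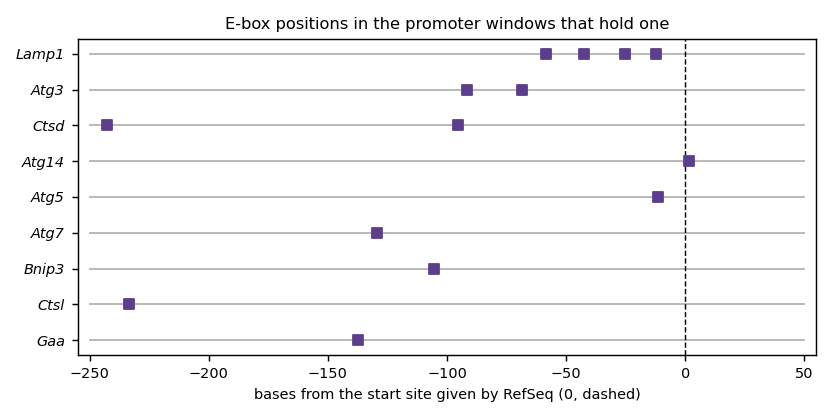
Position of each E-box core in the promoter windows of the 9 genes that hold one, in bases from the RefSeq start site (dashed line at 0). Lamp1 carries 4 cores close to its start site, Atg3 and Ctsd carry 2 each and the other 6 genes carry 1.

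The other genes of the pathway formed 6 lists with 143 entries tested, which are 142 genes because Glb1 has 2 entries. None rose and 4 fell, or 2.80% of the entries, where 1.24% of all genes were called lower and 1.26% higher. By limma at an unadjusted p under 0.05 there were 13 higher and 13 lower, where all genes gave 9.41% higher and 7.23% lower. The median over all 143 was 0.03. No member of the autophagosome formation list (18 genes) or of the cargo and mitophagy receptor list (16 genes) passed. At an unadjusted p under 0.05 these lists held 2 genes (1 higher, 1 lower) and 1 gene (lower) by limma. The genes with the smallest p were Tmem41b, a lipid scramblase, at 9.33 and 6.65 FPKM (limma adjusted p = 0.271), and the small heat shock protein gene Hspb8, at 168 and 137 FPKM (limma adjusted p = 0.256).

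Arl8a, a small GTPase that moves lysosomes along microtubules (chr1:135146834-135156268), fell. It was the single call among 17 genes of autophagosome-lysosome fusion (5.88%), where 1.24% of all genes were called lower. It stood at 9.74, 11.3 and 10.1 FPKM in control and at 5.84, 4.86 and 5.48 FPKM in CM-RevDKO libraries, a log2 fold change of -0.83 (SE 0.11, limma adjusted p = 0.0103). Each CM-RevDKO library was well below each control. With 1 library left out the call held in 5 of 6 fits (adjusted p from 0.0222 to 0.0486) and ended at the threshold without CM-RevDKO replicate 2 (difference -0.77). With CM-RevDKO replicate 3 alone against the controls the difference was -0.81 (adjusted p = 0.181).

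Npc1, the transporter that exports cholesterol from lysosomes, was the single call among 44 entries (43 genes) for lysosomal hydrolases and membrane proteins. That is 2.27% of the entries, where 1.24% of all genes were called lower. Npc1 stood at 11.5, 7.70 and 8.34 FPKM in control and at 4.56, 3.32 and 3.91 FPKM in CM-RevDKO libraries, and it fell by 1.04 on the log2 scale (SE 0.17, limma adjusted p = 0.0236). The groups were far apart, with control replicate 1 the highest. The call ended without control replicate 1 or 3 or without CM-RevDKO replicate 2 or 3 (adjusted p from 0.0584 to 0.0888). The list's median was 0.07, with 29 entries positive and 15 negative. By limma 5 entries had an unadjusted p under 0.05, all of them lower, where 7.23% of all genes were lower at that p. The groups did not overlap for 8 entries, 4 higher and 4 lower (23.1% of all genes).

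None of 17 subunits and accessory proteins of the V-ATPase, the proton pump that acidifies lysosomes, passed the test. By limma 6 had an unadjusted p under 0.05, all of them higher, where 9.41% of all genes were higher at that p. Of the 17, 13 had a positive log2 fold change, beside 53.7% of all genes, and the median was 0.17. The groups did not overlap for 8 of 17, all higher, where 12.6% of all genes were higher without overlap. The smallest p was that of Atp6v0e2, a membrane subunit, which stood at 3.85, 3.06 and 2.95 FPKM in control and at 5.71, 5.10 and 5.14 FPKM in CM-RevDKO libraries (log2 fold change 0.56, SE 0.12, limma adjusted p = 0.0614). Atp6v1f and Atp6v1a, subunits of the ATP-hydrolysing part named here after their values were seen, stood at 49.3 and 69.4 FPKM (limma adjusted p = 0.0842) and at 5.79 and 7.74 FPKM (limma adjusted p = 0.163).

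Among 32 nutrient-sensing kinases and lysosomal transcription factors, 2 fell (6.25%), where 1.24% of all genes were called lower. At an unadjusted p under 0.05 limma gave 9 of them, 5 higher and 4 lower (16.6% of all genes). The groups did not overlap for 11, 6 higher and 5 lower (23.1% of all genes). Prkab1, the beta 1 subunit of AMP-activated protein kinase (chr5:116013586-116024503), stood at 20.5, 20.2 and 20.2 FPKM in control and at 11.5, 12.2 and 12.7 FPKM in CM-RevDKO libraries. Both groups were tight, and the log2 fold change was -0.70 (SE 0.09, limma adjusted p = 0.00828), a call that held with each of the 6 libraries left out in turn (adjusted p of 0.0204 to 0.0499) but not in every other fit. With CM-RevDKO replicate 3 alone against the controls the difference was -0.64 (adjusted p = 0.192). Sesn1, a leucine-binding inhibitor of mTORC1 signalling, stood at 47.0, 46.6 and 41.8 FPKM in control and at 31.2, 33.8 and 30.4 FPKM in CM-RevDKO libraries, and it fell by 0.49 (SE 0.09, limma adjusted p = 0.0417). Leaving out any 1 library ended its call (adjusted p from 0.0823 to 0.146). The calls of Arl8a, Npc1, Prkab1 and Sesn1 all ended with control replicate 2 and CM-RevDKO replicate 1 both set aside, with adjusted p-values of 0.0644, 0.0572, 0.0744 and 0.219 in that order. They also ended with the atrial markers as a covariate (0.779, 0.576, 0.825 and 0.907) and with those other than Nppa (0.156, 0.112, 0.222 and 0.509). Both covariates separate the groups, and with them 0% and 0.234% of all genes tested were called, so these fits could keep few calls or none. With the replicate block Npc1 kept its call (0.0298), while Arl8a (0.0669), Prkab1 (0.0555) and Sesn1 (0.099996) lost theirs. The difference of Npc1 was -1.92 (SE 0.43) with all atrial markers as the covariate. AMP-activated protein kinase activates ULK1 and mTORC1 holds it back, so these lie upstream of the initiation complex.

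**Figure D5:**
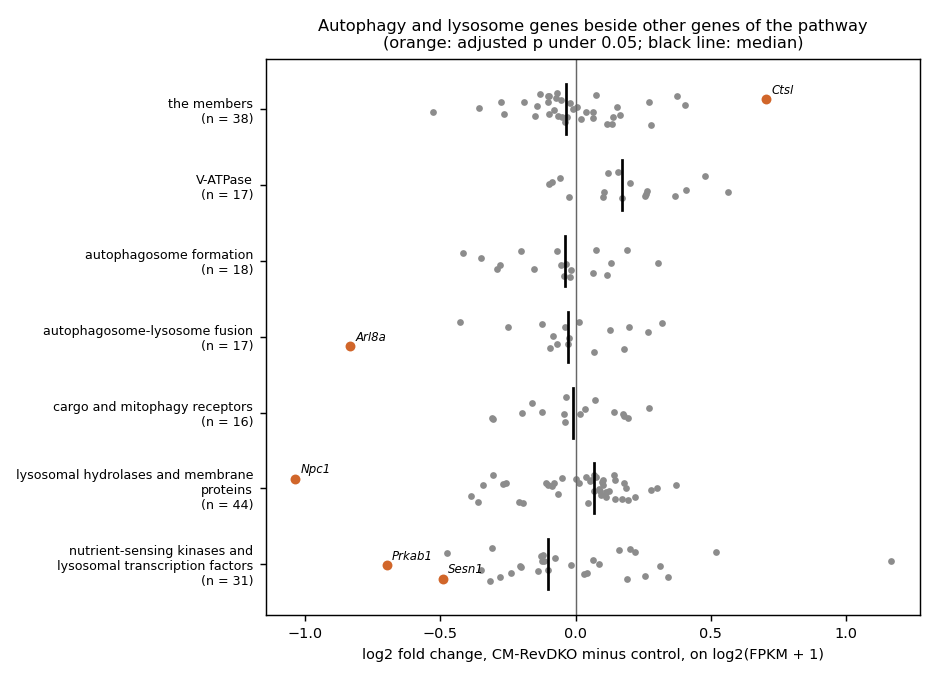
Log2 fold change (horizontal axis, CM-RevDKO minus control on log2(FPKM + 1)) of the 38 members and of the other pathway genes by list, each point a gene, with the list median as a black line. Mcoln1, on 2 lists, is drawn once, and the 5 genes with an adjusted p under 0.05 are orange, Ctsl to the right of 0 and Arl8a, Npc1, Prkab1 and Sesn1 to the left.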

How the data were processed

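RNA was taken from heart with the atria trimmed (TRIZOL, NEBNext Ultra II) in 6 libraries, per the labels' protocols. The authors deposited 1 value per gene and library, read here as FPKM. The header names no unit, and TPM, which differs by a single factor per library, cannot be told apart. Per the submitters' processing notes, HISAT2 and StringTie were used with mm10. Versions, annotation and strand handling were not given in the sources used here. Each gene in the table reaches 1 FPKM in at least 1 library. Depth is unknown, since no step worth 1 read could be found: in each of 15 library pairs, with 2202 to 2660 low genes, no log2 ratio (4 decimals) recurred in more than 4. No gene had the same value above 0 in any pair, so no library repeats another.

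Values were analysed as log2(FPKM + 1), which understates the change of low genes. The 13256 genes whose mean reached 0.5 FPKM entered a fit of group alone (limma 3.58.1, R 4.3.3, eBayes with an intensity trend), two-sided, with Benjamini-Hochberg adjustment over all of them and a threshold of 0.05. The procedure was tested on simulated data. The members, the gene lists and the alternatives were chosen with earlier results of these data known. Values in every library are given for members past the test, with an unadjusted p under 0.05 or a log2 fold change of at least 0.3 in size, or with the smallest p of their role, and for some others by choice. Of each list of other pathway genes up to 3 past the test, or else the one with the smallest p, are named. The symbol 0610009O20Rik, a RefSeq synonym of Dele1, had been put on the autophagosome list in error and was left out. Absent symbols of the other lists were matched through RefSeq synonyms. All 38 members matched RefSeq GRCm38.p6, the source of coordinates (1-based) and promoters. For 5 of them (Rb1cc1, Atg12, Map1lc3b, Gabarapl1 and Ctsb) another gene of the table overlaps, and reads could be shared. The series has 30 samples, of which 24 (Cut&Run, ChIP and control libraries) were not analysed here.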

Additional observations from a re-analysis of the deposited data

How the results depend on the processing

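With libraries left out one at a time, the count of all genes called ran from 120 to 322 (332 with all libraries), that of members called higher was 0 in each, and the members' median log2 fold change ran from -0.0579 to 0.00263. Over the same fits, 0 to 2 other pathway genes were called higher and 1 to 3 lower (4 with all). Without control replicates 1, 2 or 3 the counts of all genes were 120, 149 and 136, and without CM-RevDKO replicates 1 or 2 they were 213 and 121. Against a fold change of 1.5, 35 genes, 0 members and 0 other pathway genes were called. With CM-RevDKO replicate 3 alone against the controls, its spread assumed like that of the others, the counts were 21, 0 and 0 and the members' median was -0.00297. The counts with both control replicate 2 and CM-RevDKO replicate 1 set aside were 105, 0 and 0. With the atrial markers as a covariate they were 0, 0 and 0 and the members' median was -0.17, that of all genes being -0.11. All 4 atrial markers tested, Nppa among them, had values without overlap between the groups, so this covariate and that without Nppa both separate them. With the other atrial markers, an alternative chosen after seeing the data, they were 31, 0 and 0. Of members, 2 were called (Ctsl and Lamp1) with a mean of at least 5 FPKM and 0 without the intensity trend. Scaling to a total that leaves out mitochondrially encoded genes gave 118 higher and 212 lower genes (167 and 165 before) and the members' median was -0.10. With quantile normalization the median was -0.0834 and 1 other pathway gene was higher. Nr1d1 kept its direction but not its call against a fold change of 1.5 (1.28), with CM-RevDKO replicate 3 alone (1.21), without both named libraries (1.29) and with either covariate (0.97 and 1.19). Atg2a reversed with CM-RevDKO replicate 3 alone (0.0315) and Atg3 with the atrial covariate (-0.18), neither of them called. The cause was not tested. The Ctsl call held in 5 of 18 alternatives. Replicate numbers are shared by the groups, and whether they mark a pairing is not known. Deviations of same-numbered libraries correlated at -0.0370, -0.0642 and 0.0933 for numbers 1, 2 and 3. CM-RevDKO replicate 1 correlated best with control replicate 2 (0.109). With 3 libraries a group, such correlations cannot decide whether the libraries are paired. With the replicate block, 115 genes, 0 members and 1 other pathway gene, lower, were called, and Ctsl had an adjusted p of 0.0812. What depth limits cannot be said, since it is unknown.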

Other observations

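The small GTPase Rheb and 2 of 5 subunits tested of the Ragulator, the lysosomal platform on which mTORC1 is switched on, stood higher in CM-RevDKO libraries without overlap between groups, as did 12.6% of all genes, and none passed the test. These genes were chosen after their values were seen. The other Ragulator subunits overlapped between groups, with log2 fold changes of -0.10 for Lamtor1, 0.19 for Lamtor2 and 0.06 for Lamtor3. Lamtor5 stood at 33.998, 31.7 and 35.9 FPKM in control and at 52.2, 56.5 and 39.5 FPKM in CM-RevDKO libraries (limma adjusted p = 0.119), with replicates 1 and 2, the libraries that stood apart, the highest. Lamtor4 stood at 42.9 ± 5.80 and 53.4 ± 5.16 FPKM and Rheb, which activates mTORC1, at 36.7 ± 1.72 and 42.9 ± 2.16 FPKM (SD, n = 3). Rptor, the mTORC1 scaffold, and Tsc1, an inhibitor of Rheb, stood lower, at 6.74 and 5.07 FPKM (limma adjusted p = 0.157) and at 4.88 and 3.72 FPKM (limma adjusted p = 0.188). Ddit4, a stress-induced inhibitor of mTORC1, had the highest log2 fold change of the other pathway genes, 1.16, but its libraries were spread, at 45.3, 57.7 and 28.0 FPKM in control and at 141, 89.6 and 67.7 FPKM in CM-RevDKO (limma adjusted p = 0.124).

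Fyco1, an adaptor that carries autophagosomes along microtubules, stood at 58.3, 57.4 and 56.0 FPKM in control and at 38.3, 46.0 and 42.9 FPKM in CM-RevDKO libraries. Its log2 fold change was -0.43 (limma adjusted p = 0.0704), and it was chosen after its values were seen. Scarb2, a lysosomal membrane receptor, and Psap, the precursor of the saposins that help degrade sphingolipids, stood lower without overlap and were also chosen after their values were seen, at 46.2 and 35.2 FPKM (limma adjusted p = 0.128) and at 331 and 261 FPKM (limma adjusted p = 0.185).

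Rb1cc1 varied more between libraries than between groups, with its lowest values in control replicate 1 (10.4 FPKM) and CM-RevDKO replicate 1 (11.8 FPKM) and the other 4 libraries at 14.9 to 17.6 FPKM.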
